A study of Homo sapiens with 14 samples.

Results

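The comparison described here set PANC-1 cells kept for 24 h in the vehicle dimethyl sulfoxide (DMSO) against the same line at the start of the experiment (DMSO, 0 h). PANC-1 is an established human line from a ductal carcinoma of the pancreas. It used 4 of the study's 14 small RNA libraries, 2 at 0 h and 2 at 24 h, each pair lettered A and B, and every entry of the count table was taken. All 4 libraries came from monolayers grown in medium with fetal bovine serum, and no proanthocyanidin was given to them. The other 10 libraries were DMSO at 3 and 12 h and grape proanthocyanidins (PA, flavan-3-ol polymers) at 20 μg/ml for 3, 12 and 24 h, again 2 libraries a group. The comparison addresses what time in vehicle alone did to the miRNA profile. Time in culture and exposure to DMSO run together in these groups and cannot be told apart. The design text speaks of biological replication. Separate cultures for A and B are not stated in the labels, so p-values measure the spread between libraries, which may be in part technical.

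A microRNA (miRNA) is cut from a hairpin precursor, and either arm of the hairpin, named 5p or 3p, can be loaded into an Argonaute protein. The loaded strand finds its target mRNAs mainly through the seed, bases 2 to 8 from its 5′ end, so that miRNAs with the same seed share many predicted targets. Chromosome 14q32 holds one of the densest groups of miRNA genes in the human genome, in the imprinted DLK1-DIO3 domain. There, long noncoding transcripts from the maternal chromosome, among them MEG8 and MEG9, carry the hairpins.

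The sequences below are those of the miRNAs on which the results turn, from RefSeq (GRCh38.p14), written 5′ to 3′ with the seed in capitals. The first 8 rose over the 24 h, and the others fell.
miR-380-3p: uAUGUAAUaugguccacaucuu
miR-376a-3p: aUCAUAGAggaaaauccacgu
miR-376b-3p: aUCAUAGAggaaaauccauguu
miR-409-3p: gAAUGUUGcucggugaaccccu
miR-665: aCCAGGAGgcugaggccccu
miR-493-3p: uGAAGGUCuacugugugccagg
miR-146a-5p: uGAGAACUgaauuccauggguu
miR-7-5p: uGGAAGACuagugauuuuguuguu
miR-380-5p: uGGUUGACcauagaacaugcgc
miR-410-5p: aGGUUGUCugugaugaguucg
miR-4802-3p: uACAUGGAuggaaaccuucaagc
miR-4310: gCAGCAUUcauguccc
miR-6750-5p: cAGGGAACagcugggugagcugcu
miR-562: aAAGUAGCuguaccauuugc
miR-3184-5p: uGAGGGGCcucagaccgagcuuuu

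miR-376a-3p and miR-376b-3p carry the same seed, UCAUAGA, and both rose. The other 6 rises each had a seed of their own among the rises. Of the 682 named entries tested, 597 matched a RefSeq mature sequence, as did 18 of the 19 named entries that passed. The median GC content was 39.5% in the 8 rises, 53.1% in the 10 falls with a sequence and 47.6% in the 579 entries with a sequence that did not pass.

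The table held 2848 entries, 2346 with a miRNA name and 502 known only by a contig and a running number, called unnamed below. Total counts were 1550026 (A) and 1131473 (B) at 0 h and 2302554 and 2230573 at 24 h, within 1032391 to 3111014 over all 14 libraries. The 24 h libraries were thus the deeper ones. Spearman's correlation between A and B was 0.942 at 0 h and 0.969 at 24 h over the tested entries, which are not independent replicates. Unnamed entries took 2.24% and 2.61% of the counts at 0 h and 1.97% and 1.74% at 24 h. Levels are given as CPM, the count scaled by the library total and its TMM factor. Mature miRNAs are of like length, so CPM needs no length correction.

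A small group of miRNAs changed, and of the 10 most abundant only miR-146a-5p passed. Of 810 entries tested with edgeR's quasi-likelihood test in a fit of all 14 libraries, 29 passed an adjusted p (Benjamini-Hochberg) of 0.05, or 3.58%. There were 8 higher at 24 h (0.988%) and 21 lower (2.59%), and over all 810 the median change was 0.00 on the log2 scale. At an unadjusted p under 0.05 there were 144. All 8 rises carried a miRNA name, and 6 of them came from 14q32. The 21 falls were 11 named and 10 unnamed entries.

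**Figure D1:**
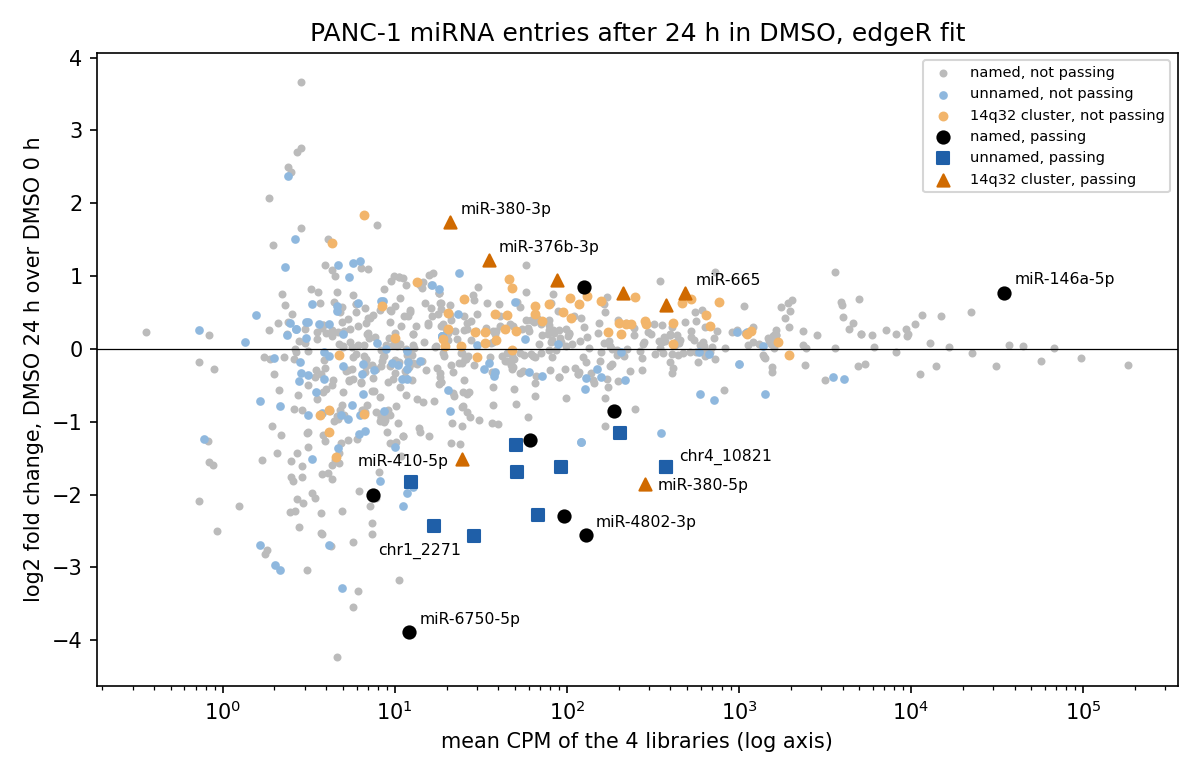
The log2 fold change of DMSO 24 h over DMSO 0 h (edgeR fit) is plotted against the mean CPM of the 4 libraries on a log axis, 1 point per entry. It draws the 799 of 810 entries with a count in at least 1 library of each group. The 6 rising 14q32 entries (orange triangles above 0) lie between 21.1 and 485 CPM, miR-146a-5p stands alone at 34729 CPM, and the unnamed entries that passed (blue squares) all lie below 0.

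The largest rise was that of miR-380-3p, from the 3p arm of MIR380 (chromosome 14, 101025017 to 101025077, plus strand, within an intron of MEG8). It stood at 8.06 and 11.5 CPM at 0 h and at 27.9 and 36.9 CPM at 24 h. Both 24 h libraries were above both 0 h libraries, and the log2 fold change was 1.74 ± 0.37 (SE; edgeR adjusted p = 0.0173). miR-376b-3p followed, at 18.6 and 23.9 CPM at 0 h and 57.9 and 40.3 CPM at 24 h (log2 fold change 1.22 ± 0.31, edgeR adjusted p = 0.0435). Its seed partner miR-376a-3p, which can come from MIR376A1 or MIR376A2, was more abundant and went from 66.4 and 53.5 CPM to 128 and 103 CPM (0.95 ± 0.22, edgeR adjusted p = 0.0244). The groups did not overlap for either member of the pair. However, miR-376b-3p did not pass in most fits that left out a library, and passed in 6 of the 12 other settings. With a library left out, the highest edgeR adjusted p was 0.151 for miR-380-3p and 0.245 for miR-376b-3p, both without DMSO 0 h A, and 0.255 for miR-376a-3p without DMSO 0 h B. miR-376c-3p, a near relative whose seed is ACAUAGA, had 208 CPM on average at 0 h and 264 CPM at 24 h and did not pass (edgeR adjusted p = 0.384).

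The other 14q32 rises were smaller. miR-665 (MIR665, chromosome 14, 100875033 to 100875104) had 307 and 412 CPM at 0 h and 564 and 657 CPM at 24 h, a ratio of means of 1.70. miR-409-3p (MIR409, 101065300 to 101065378, MEG9 intron) had 157 and 155 CPM against 251 and 280.2 CPM. miR-493-3p (MIR493, 100869060 to 100869148) had 296 and 301 CPM against 451 and 461 CPM, and its adjusted p in the edgeR fit, 0.0485, lay just inside the threshold. Each of these 3 failed to pass in most fits that left out a library, among them the fit without DMSO 24 h B. Of the 12 other settings, miR-665 passed in 9, and miR-409-3p and miR-493-3p in 5 each. These hairpins lie towards the ends of the cluster, MIR493 and MIR665 at its start and MIR409 near its last member. The entries just outside the threshold among the rises were miR-379-3p (0.96 ± 0.27, edgeR adjusted p = 0.0601) and miR-411-3p (0.69 ± 0.19, edgeR adjusted p = 0.0613), 14q32 members that share the seed AUGUAAC and neither of which passed.

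Most of the 14q32 cluster stood higher at 24 h, by a small amount. In a list of 56 mature miRNAs of the cluster, 55 were tested, 6 rose, 0 fell (20 higher and 0 lower at an unadjusted p under 0.05, edgeR) and 50 had a positive log2 fold change. Over all 810 tested entries, 66 were higher and 78 lower at an unadjusted p under 0.05, and 406 were positive. The median of the list was 0.38, against 0.00 over all tested entries. A second count by position, chosen after values were seen, took tested mature miRNAs placed in hairpins from MIR493 to MIR656 (chromosome 14, 100869060 to 101066801). It held 66 entries from 42 hairpins, of which 6 rose, 2 that the list does not hold fell and 55 were positive. Their median was 0.36, against -0.05 in the 744 other entries. The list members miR-370-3p, miR-381-3p, miR-432-5p and miR-668-3p were not among the 66 and so counted among the 744. The 744 are thus not free of entries that the list assigns to the cluster. The 4 libraries separated upward in 42 of the 66 and downward in 5. Over all tested entries they separated upward in 26% and downward in 26.3%.

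The 66 entries summed to 13196 and 13738 CPM at 0 h and 16730 and 16043 CPM at 24 h. Both 24 h sums were thus above both 0 h sums, and the DMSO 3 h libraries (13372 and 13499 CPM) sat with 0 h. The DMSO 12 h libraries were split, at 16580 and 13922 CPM. The 55 tested list members summed to 13733 and 14318 CPM at 0 h and 17897 and 17323 CPM at 24 h. The members are cut from shared transcripts and are not independent of each other. Among the 28 of the 66 entries with 100 CPM or more, 26 were positive, and the 11 negative entries included 6 with a mean under 10 CPM. The median of the set by position stayed positive in every refit. It ran from 0.29 with only entries of at least 50 counts in 2 libraries to 0.44 without PA 24 h B. The number of members that rose was 0 without DMSO 0 h A or DMSO 24 h B, 1 or 2 without DMSO 0 h B, DMSO 24 h A or any DMSO 3 h, PA 3 h or PA 12 h library, 11 without either DMSO 12 h library and 12 without PA 24 h B.

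**Figure D2:**
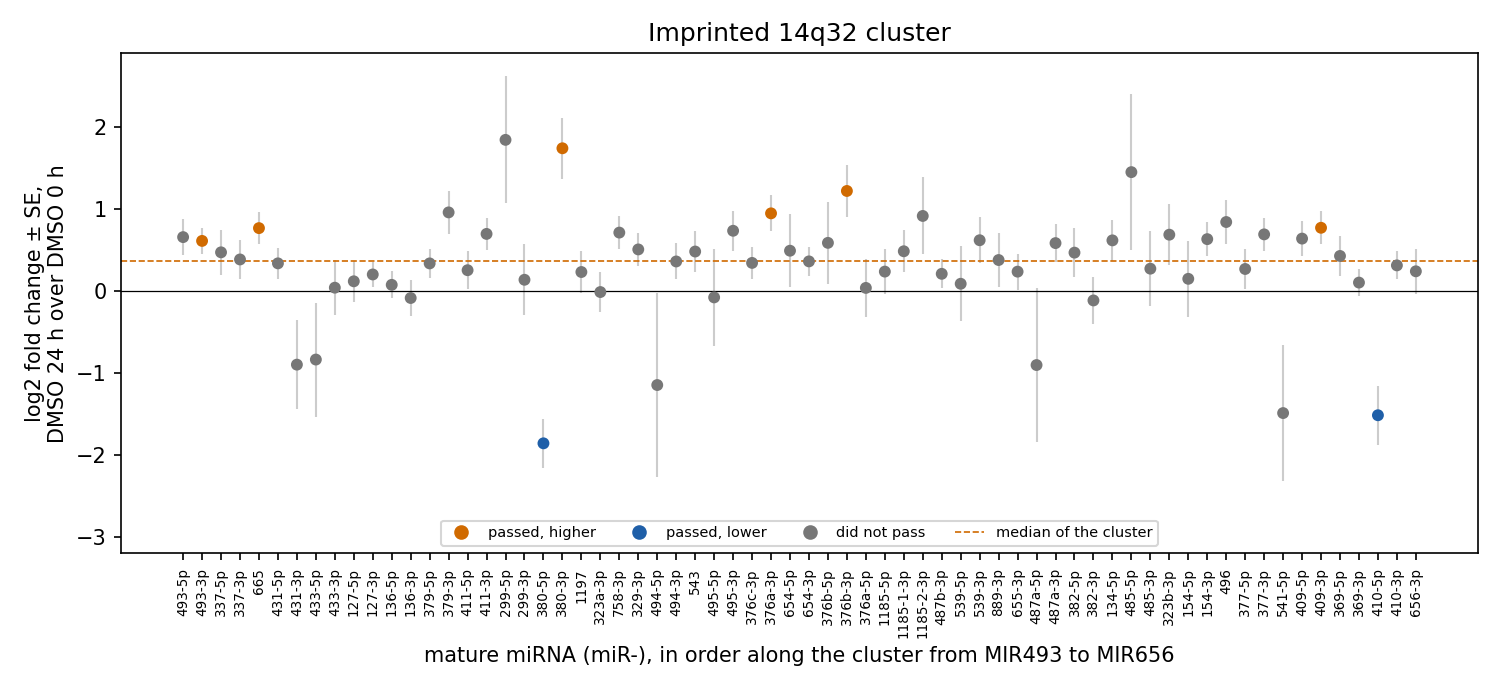
The log2 fold change of DMSO 24 h over DMSO 0 h is drawn with its SE (edgeR fit). It covers the 66 entries of the 14q32 count by position, in order along the chromosome and not to scale. Orange marks the 6 that rose, blue the 2 that fell and grey the rest, and the dashed line is the median of 0.36.

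Both miRNAs of the cluster that fell were 5p arms whose 3p partners did not fall. miR-380-5p stood at 434 and 462 CPM at 0 h and at 148 and 99.3 CPM at 24 h (log2 fold change -1.86 ± 0.30, edgeR adjusted p = 0.00174), whereas miR-380-3p from the same hairpin rose. There were 0.0186 and 0.0249 reads of the 3p arm for each read of the 5p arm at 0 h, and 0.189 and 0.371 at 24 h. The 5p arm stayed the more abundant one in all 4 libraries. miR-410-5p went from 37.2 and 35.4 CPM to 11.9 and 13.4 CPM (-1.52 ± 0.36, edgeR adjusted p = 0.0297). Its partner miR-410-3p had 589 and 628 CPM at 0 h and 814 and 695 CPM at 24 h, and did not pass (edgeR adjusted p = 0.37). Without DMSO 24 h A the fall of miR-410-5p did not pass (edgeR adjusted p = 0.161). The 3p arm of MIR410 (chromosome 14, 101065912 to 101065991, in an exon of MEG9) was the main product at both times.

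The hairpins are shown because the arms of each went apart, with both mature arms in capitals, 5p first, from RefSeq (GRCh38.p14, plus strand).
MIR380: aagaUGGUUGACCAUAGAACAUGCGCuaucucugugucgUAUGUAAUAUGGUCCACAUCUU
MIR410: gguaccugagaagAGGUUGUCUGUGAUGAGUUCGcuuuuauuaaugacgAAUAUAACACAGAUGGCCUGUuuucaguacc

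Of 162 hairpins with both arms tested, 8 had at least 1 arm that passed, and in 7 of these it was a single arm. MIR380 was the exception, with both arms passing in opposite directions. The difference between its arms, 3.60 on the log2 scale, was the largest of the 162, whose median absolute difference was 0.38. Arms of opposite sign were also found for MIR410, MIR146A and MIR3184, and over all 162 hairpins 93 had arms of the same sign. For MIR3184 the 3p entry had the same counts as miR-423-5p, from another hairpin, so its arms cannot be compared with certainty. The 5p partners of miR-493-3p (0.66) and miR-409-3p (0.64) had log2 fold changes near those of the arms that rose without passing themselves. miR-376b-5p was at 0.59 and miR-376a-5p at 0.04, both below the 3p arms that rose. The difference between arms was not tested within the count model.

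**Figure D3:**
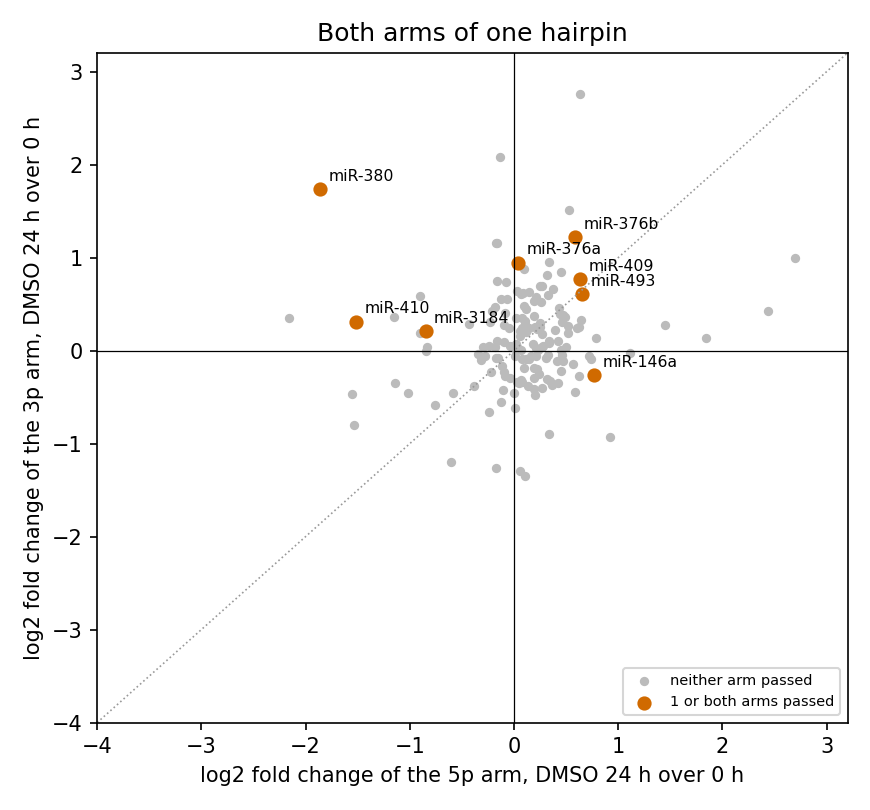
Each point is 1 of 162 hairpins, with the log2 fold change (DMSO 24 h over DMSO 0 h, edgeR fit) of its 5p arm on the x axis and of its 3p arm on the y axis. The dotted line marks equal change. Orange points have an arm that passed, and miR-380 stands far into the upper left, at -1.86 and 1.74.

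miR-146a-5p, a brake on NF-kB signalling through TRAF6 and IRAK1, was the one miRNA above 1000 CPM that rose. It is encoded by MIR146A (chromosome 5, 160485352 to 160485450, plus strand, in an exon of the noncoding gene MIR3142HG). Its level was 25711 and 25623 CPM at 0 h and 46352 and 41231 CPM at 24 h, a log2 fold change of 0.77 ± 0.14 (edgeR adjusted p = 0.00401). At 3 h it was 32119.9 and 40031 CPM and at 12 h 60566 and 57868 CPM, so that the 0 h libraries were the lowest of the 8 DMSO libraries and the 12 h libraries the highest. With a single library left out its log2 fold change ran from 0.68 to 0.87, and it did not pass without DMSO 0 h A (edgeR adjusted p = 0.0545), DMSO 0 h B (0.0904) or DMSO 24 h A (0.0714). Its 3p arm had 139.5 and 105 CPM at 0 h and 103 and 101 CPM at 24 h and did not pass (edgeR adjusted p = 0.6). miR-146b-5p, which has the same seed GAGAACU and lies on another chromosome, had 225 CPM on average at both times, with a log2 fold change of 0.00 (edgeR adjusted p = 0.994). Of a list of 8 NF-kB and inflammation miRNAs, miR-146a-5p was the only one that passed.

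miR-7-5p, which targets EGFR and is abundant in pancreatic islet cells, rose from 103 and 76.5 CPM to 159 and 167 CPM (0.86 ± 0.22, edgeR adjusted p = 0.0435). Over all refits its log2 fold change ran from 0.67 to 1.07. It did not pass in most fits that left out a library, and passed in 7 of the 12 other settings. It can come from 3 hairpins, and its entry does not tell which. miR-3529-3p, which lies opposite one of them, MIR7-2, had 1736 and 1420 CPM at 0 h and 2449 and 2575 CPM at 24 h without passing (edgeR adjusted p = 0.0802). Its sequence is the exact reverse complement of miR-7-5p over all 24 bases, and it is the more abundant entry in each of the 4 libraries. Whether the counting used strand is not given in the sources used here, so reads of these entries may not be told apart and the level of miR-7-5p is uncertain. miR-7-5p was the single member that passed of 10 growth-factor and serum-responsive miRNAs. It was also the only one to pass of the 5 acinar and islet markers, of which 2 were tested. Over all tested entries 0.988% rose. The sum of the 5 markers went from 108 and 81.4 CPM to 165 and 169 CPM and was nearly all miR-7-5p. miR-216a-5p was at 0 in all 4 libraries.

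Among the named falls outside 14q32, the largest in CPM was that of miR-4802-3p, from an intron of RBM47 (chromosome 4, 40502040 to 40502119, minus strand). It stood at 209.6 and 230.3 CPM at 0 h and at 46.0 and 28.6 CPM at 24 h (log2 fold change -2.56 ± 0.38, edgeR adjusted p = 0.00174). miR-4310, listed at 16 bases and from an intron of SPTBN5 (chromosome 15, 41866495 to 41866551, minus strand), went from 114 and 208 CPM to 31.2 and 34.3 CPM (-2.29 ± 0.37, edgeR adjusted p = 0.00174). For both, each 24 h library was far below each 0 h library, and the 3 h levels (107.4 and 100.1 CPM, and 97.9 and 77.2 CPM) lay between. miR-6750-5p, from an intron of ATG2A (chromosome 11, 64898363 to 64898437, minus strand), was 24.8 and 20.6 CPM at 0 h and 1.23 and 1.73 CPM at 24 h (-3.89 ± 0.68, edgeR adjusted p = 0.00266). Without DMSO 24 h A, miR-4310 and miR-6750-5p lay just outside the threshold (edgeR adjusted p = 0.0512 and 0.0578).

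A further 3 named entries had no count in either 24 h library. miR-562, from an intron of DIS3L2, had 10.54 and 9.05 CPM at 0 h. Against a floor of 3 counts over the 24 h group, 0.633 CPM, it was at least 15.5-fold lower at 24 h. miR-372-5p, from the other arm of an embryonic stem cell miRNA, had 6.82 and 3.29 CPM and was at least 7.99-fold lower. miR-4634 had 3.10 and 3.29 CPM and was at least 5.05-fold lower. Without DMSO 24 h B their edgeR adjusted p-values were 0.135, 0.145 and 0.279. miR-562 and miR-4634 were rare in every library, with highest values of 10.54 CPM and 9.10 CPM. In the 4 libraries compared miR-372-5p was rare too.

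The remaining named falls were miR-4485, miR-6715b-3p and miR-3184-5p. miR-4485, whose sequence is known to lie within mitochondrial ribosomal RNA, went from 11.8 and 12.3 CPM to 3.28 and 2.60 CPM (edgeR adjusted p = 0.0324). miR-6715b-3p had 64.5 and 109 CPM at 0 h and 43.1 and 29.1 CPM at 24 h (-1.25 ± 0.31, edgeR adjusted p = 0.0354). miR-3184-5p had 201 and 284 CPM at 0 h and 128 and 141 CPM at 24 h (-0.85 ± 0.21, edgeR adjusted p = 0.0332), the smallest fall of the 21, and did not pass without DMSO 0 h B (edgeR adjusted p = 0.392). miR-4485 did not pass without DMSO 24 h B (edgeR adjusted p = 0.29), nor did miR-6715b-3p without DMSO 0 h B (edgeR adjusted p = 0.38). MIR3184 (chromosome 17, 30117086 to 30117160, minus strand) is the antisense of MIR423, and the entries for miR-3184-3p and miR-423-5p had identical counts in all libraries. Reads from the pair may therefore not be told apart, and the levels of both miR-3184 arms are uncertain. miR-423-5p, with the seed GAGGGGC of miR-3184-5p, had 188.5 and 192 CPM at 0 h and 208 and 233 CPM at 24 h and did not pass (edgeR adjusted p = 0.557).

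The 10 unnamed entries that fell stood for at most 9 sequences, since chr4_10821 and KI270790.1_41873 had the same counts throughout. This pair was the most abundant of the falls, at 454 and 689 CPM at 0 h and 206 and 164 CPM at 24 h (-1.62 ± 0.26, edgeR adjusted p = 0.00174). chr1_2271 had the largest unnamed fall, from 36.6 and 62.5 CPM to 9.85 and 6.51 CPM (-2.57 ± 0.36, edgeR adjusted p = 0.00174). chr16_32004 went from 33.5 and 23.9 CPM to 3.69 and 6.94 CPM, and chr8_19924 from 104 and 123 CPM to 25.0 and 21.2 CPM. Their highest edgeR adjusted p with a library left out was 0.0714 for chr16_32004 (without DMSO 24 h A) and 0.052 for chr8_19924 (without DMSO 24 h B). The other 5 had log2 fold changes from -1.83 (chr12_26635) to -1.15 (chr20_36956). Their sequences and positions were not used here, so what RNA they count is not described.

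Most of the unnamed entries tested stood lower at 24 h. They were 128 of the 810 tested entries (15.8%) and 10 of the 21 falls, and 81 of them had a negative log2 fold change, with a median of -0.27 against 0.04 in the named entries. That median was 0 without a filter on low counts (235 of 502 negative), -0.46 with at least 50 counts in 2 libraries and -0.44 with libraries thinned to the smallest total. No unnamed entry rose (edgeR), and at an unadjusted p under 0.05 they counted 4 higher and 25 lower. They were also rarer, with a median of 8.59 CPM against 24.6 CPM for the named ones. The 296 entries under 10 CPM, named and unnamed, had a median of -0.27 too, and the 81 entries of 1000 CPM or more a median of 0.14. The part of abundance and depth in the difference between the classes was not tested. With all libraries thinned at random to the smallest total, 18 of the 21 falls and 3 of the 8 rises still passed.

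The most abundant miRNAs did not pass, apart from miR-146a-5p. miR-21-5p, the most abundant entry in these 4 libraries, was 222074 and 171815 CPM at 0 h and 164079 and 174735 CPM at 24 h, so the groups overlapped (-0.22, edgeR adjusted p = 0.486). miR-100-5p had a log2 fold change of -0.13 and miR-29a-3p of -0.17. miR-27a-3p, miR-27b-3p, miR-22-3p and miR-24-3p were all within 0.1 of 0 on the log2 scale, with signs that changed with the scaling or the libraries used. miR-10a-5p, from the HOXB locus, was at 18528 and 18325 CPM at 0 h and at 24875 and 27299.9 CPM at 24 h without overlap, yet did not pass (0.50, edgeR adjusted p = 0.15).

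No member of the other families and groups examined passed (edgeR), and the values below describe them only. They stand beside 406 of 810 positive over all tested entries, and 66 higher and 78 lower of 810 at an unadjusted p under 0.05. The miR-17-92 clusters, which promote the cell cycle, had 10 of 11 tested members positive with a median of 0.33 (3 higher and 0 lower at an unadjusted p under 0.05). Their sum was 21468 and 15307 CPM at 0 h and 24788 and 25211 CPM at 24 h. The largest of them, miR-19b-3p, was at 1.06 ± 0.35 (edgeR adjusted p = 0.103). The let-7 family, which restrains growth genes, had 8 of 9 positive with a median of 0.19. Its sums were 35075 and 32165 CPM at 0 h and 35742 and 41319 CPM at 24 h, close together but without overlap. The miR-200 family, keepers of the epithelial state, was scarce in PANC-1, with sums of 58.3 and 64.2 CPM at 0 h and 81.3 and 65.1 CPM at 24 h. Of its 5 members 4 were positive, with a median of 0.63. In the miR-548 family, 21 of 29 tested members were positive with a median of 0.63 (10 higher and 0 lower at an unadjusted p under 0.05), and several of its members had identical counts.

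On the negative side, the miR-29 family had 3 of 3 members below 0 with a median of -0.17, and the miR-30 family a median of -0.23. Both hypoxia-induced entries were positive at 24 h (median 0.38), and the 7 tested p53-responsive miRNAs had a median of -0.06. Among 15 tested entries of a list of miRNAs whose sequences lie in tRNA, rRNA, U2 or snoRNA, 11 were negative, with a median of -0.20. The list did not hold miR-4485, which lies in mitochondrial ribosomal RNA and fell. Apart from miR-7-5p, no marker of another cell type passed. Of 7 tested fibroblast and endothelial miRNAs 6 were negative (median -0.46), while their sum, 1356 and 1511 CPM at 0 h and 1377 and 1363 CPM at 24 h, overlapped. Haematopoietic markers summed to 1.6 to 4.1 CPM in the 4 libraries, with miR-150-5p and miR-223-5p of these 5 markers at 0, and none was tested.

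Set among all 8 DMSO libraries, 5 of the 8 rises had their 0 h values low and 14 of the 21 falls had their 24 h values low. In 5 of the rises the 0 h libraries were below all 6 other DMSO libraries, as in 7.41% of all entries, and in 3 of 8 the 24 h libraries were above all others, as in 7.65%. Among the 21 falls, the 24 h libraries were below all other DMSO libraries in 14, against 6.05% of all entries, and the 0 h libraries above all others in 9, against 7.78%. Both 24 h and 0 h values chose these entries, so the shares are descriptive. miR-146a-5p, miR-7-5p, miR-409-3p and miR-493-3p were at least as high at 12 h as at 24 h on average. In contrast, miR-665, miR-376b-3p and miR-380-3p were highest at 24 h. For miR-376a-3p the log2 fold change of 24 h over 12 h was 0.096. miR-6750-5p, chr16_32004 and miR-4634 were on average no lower at 12 h than at 0 h and had their lowest DMSO values at 24 h. miR-4802-3p, miR-4310 and miR-380-5p were lower on average at each later time.

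Comparisons of the same DMSO 24 h libraries with the 3 h and 12 h libraries are given side by side, since they share samples with the main one. Against 3 h, 10 of 810 entries passed (1.23%), with 0.988% of all entries lower and 0.247% higher. The lower ones were 8 of the 21 falls, and the higher ones were miR-411-3p (0.87) and miR-33b-3p (1.62). The 8 rises all had the same sign there and did not pass, with edgeR adjusted p-values from 0.0737 to 0.543. Against 12 h, 80 entries passed (9.88%), with 4.32% of all entries lower and 5.56% higher. Of the 21 falls 14 passed there, again lower at 24 h. The rises had edgeR adjusted p-values from 0.0616 to 0.974 against 12 h. The count against 3 h rests on single libraries: it was 0 without either DMSO 24 h library, 2 and 1 without DMSO 3 h A and B, 16 and 17 without PA 24 h A and B, and 23 and 20 without DMSO 12 h A and B. The count against 12 h was 32 and 30 without DMSO 24 h A and B.

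The PA libraries give a time course with other samples. Between PA 3 h and PA 24 h, 32 entries passed (3.95%; 2.72% higher and 1.23% lower), and 1 of the 21 falls fell there too, miR-6715b-3p, with a log2 fold change of -1.38 (edgeR adjusted p = 0.0334). In PA 3 falls went the other way: chr8_19924 (4.55), chr12_26635 (1.70) and chr13_28163 (1.496). Of the 21 falls 8 had the same sign in PA, and of the 8 rises 5, none of which passed (edgeR adjusted p from 0.0632 to 0.614 over the 8). The median of the 66 cluster members was 0.35 between DMSO 3 h and 24 h and 0.07 between PA 3 h and 24 h. That difference between medians was not tested. Over the same PA times the log2 fold change was 0.08 for miR-380-5p and 0.75 for miR-380-3p, and neither passed. The PA count was 1 and 6 without PA 3 h A and B, 16 without PA 24 h B and 49 without DMSO 12 h B.

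**Figure D4:**
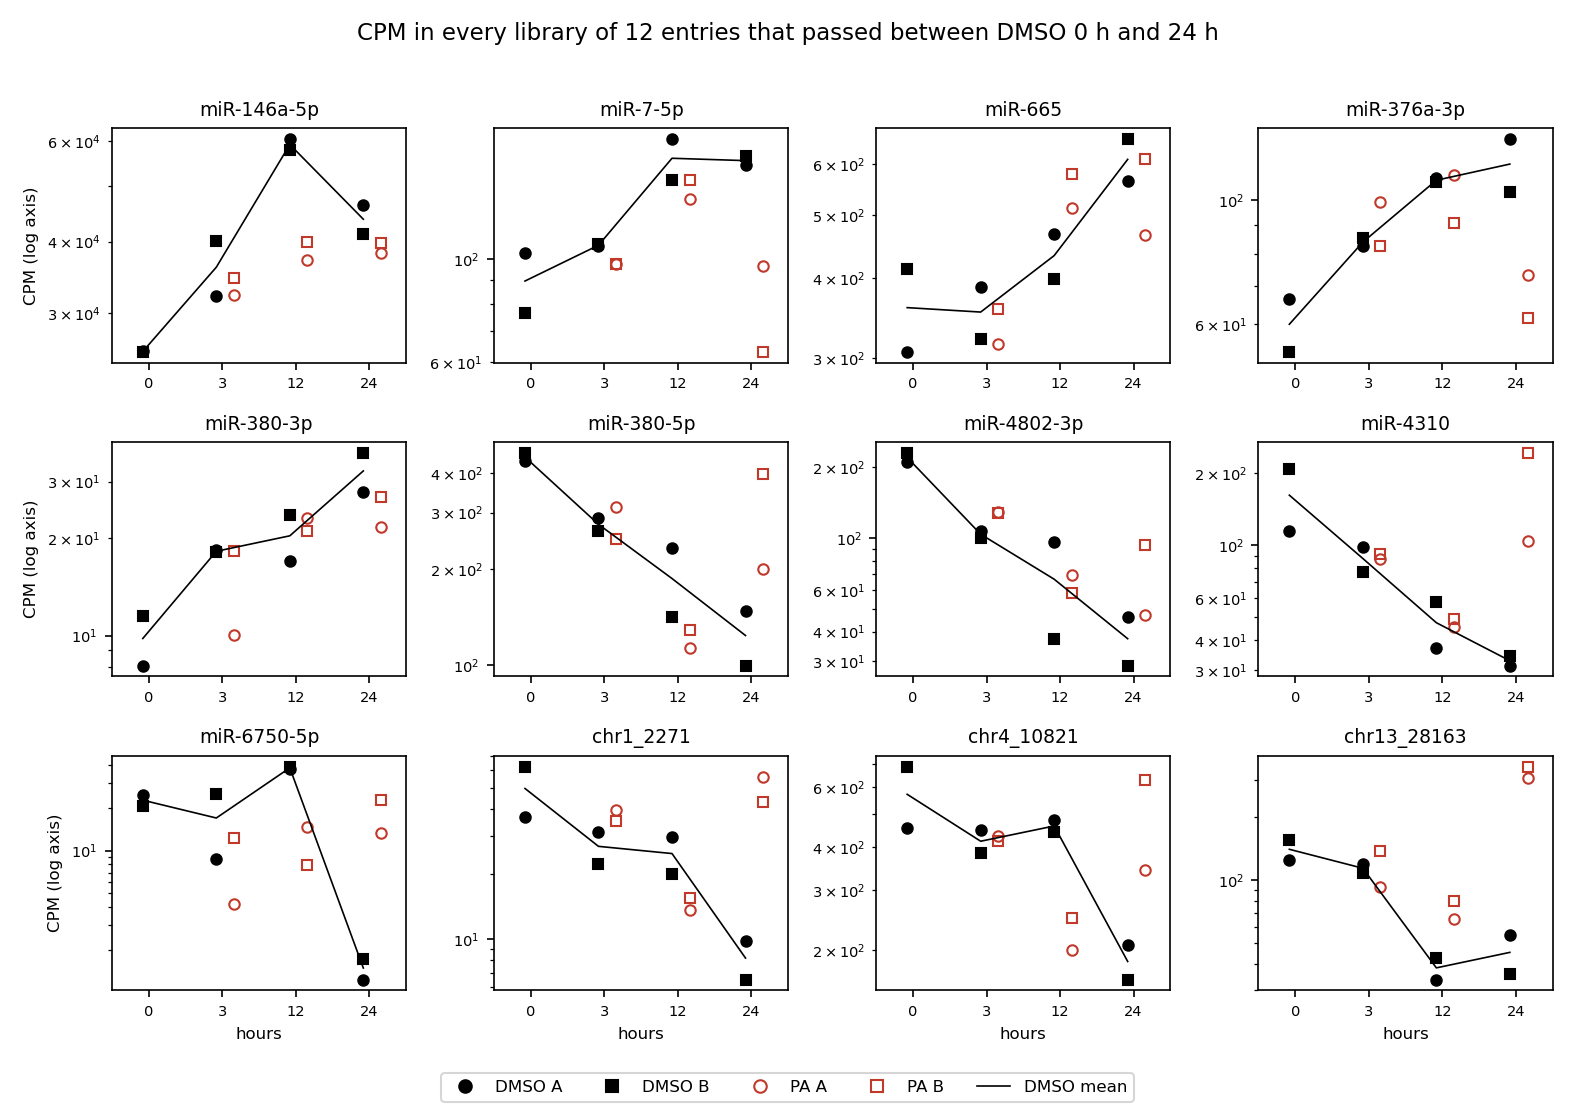
CPM on a log axis in all 14 libraries for 12 entries that passed between DMSO 0 h and 24 h, by time in hours (evenly spaced, not to scale). Black marks are DMSO, red open marks PA, circles A and squares B, and the line joins the DMSO means. In DMSO, miR-146a-5p peaks at 12 h and miR-380-3p and miR-380-5p move in opposite directions from 0 h to 24 h. miR-6750-5p is lowest at DMSO 24 h.

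The number of rises was the less stable of the counts. It was 0 without DMSO 0 h A, 1 without DMSO 24 h A or B, 2 without DMSO 0 h B or DMSO 3 h B, 3 without DMSO 3 h A or any of the PA 3 h and PA 12 h libraries, 19 without DMSO 12 h A or B and 23 without PA 24 h B. The number of falls stayed from 15 to 31, except for 9 without DMSO 24 h A or without DMSO 24 h B. None of the 29 entries changed sign in any refit. Those that passed in every one of the 14 fits that leave out a library were miR-380-5p, miR-4802-3p, chr1_2271, chr20_37468 and the chr4_10821 pair, all of them falls.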

How the data were processed

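Small RNA of PANC-1 cells was measured in 14 libraries, 2 in each of 7 groups, of which the 4 of DMSO 0 h and DMSO 24 h were compared. The authors deposited whole-number read counts per mature miRNA entry and library, per the file headers. The tools bcl2fastq, Bowtie and edgeR and the build GRCh38 are named per the submitters' processing notes. Versions, strand use and the handling of multi-mapped reads are not given in the sources used here. The labels name 151 nt and 75 nt paired ends without saying which applied, and both lengths exceed a miRNA. A deposited TPM table was not used.

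The test was edgeR 4.0.16 (R 4.3.3), robust glmQLFit on TMM-scaled counts. The filterByExpr settings were min.count 10 and min.total.count 15, which kept 810 of 2848 entries and at least 99.8% of each library's counts. All 14 libraries entered 1 fit by group, so that 7 groups shared the estimate of spread (common biological coefficient of variation 0.203). An entry passed at a Benjamini-Hochberg adjusted p under 0.05 over the 810 entries. SE is the size of the log2 fold change divided by the square root of F. Floors of 3 counts cover counting error only. The procedure was tested on simulated data.

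The named entries were the 10 largest rises and falls that passed without overlap of the libraries, filled to 10 with the smallest p, the 5 most abundant that passed, the 10 most abundant, and list members that passed. All other entries that passed are also mentioned. The members and lists were chosen with earlier results of these data known. Other lists examined were the miR-15/16, miR-130, miR-148, miR-181, miR-183, miR-221, miR-23/27/24, miR-99/100, miR-33, miR-103/107, CLCN5-hosted and HOX-embedded groups, in which no entry passed. Positions and sequences came from RefSeq tables (GRCh38.p14) and gene context from GENCODE 29. Alternatives were RLE factors, total counts, other filters, DESeq2 1.42.0, fewer libraries or entries, a replicate block and each library left out. Thinning to the smallest total, leaving out both DMSO 12 h libraries and keeping 1 of each of 13 sets of entries with identical counts were added after seeing the data.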

Additional observations from a re-analysis of the deposited data

Results flagged for a closer look

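For 6 of the 21 entries that fell between DMSO 0 h and DMSO 24 h, the change from 3 h to 24 h differed between PA and DMSO by an interaction term in the edgeR fit, which 10 of 810 entries passed (1.23%). The DMSO 24 h libraries that chose the falls also enter this term, so a positive sign is in part fixed by the choice. The difference, PA minus DMSO on the log2 scale, was 5.97 for chr8_19924 (edgeR adjusted p = 3.12e-06), which reached 7209.9 and 10822 CPM at PA 24 h from 462 and 309.7 CPM at PA 3 h. It was 2.83 for chr13_28163 (edgeR adjusted p = 0.000252), with 307 and 348 CPM at PA 24 h. For miR-6750-5p it was 4.48 (edgeR adjusted p = 0.0192), for miR-4310 2.36 (edgeR adjusted p = 0.0288) and for chr1_2271 2.13 (edgeR adjusted p = 0.0335). For miR-372-5p the fitted value was 7.84 (edgeR adjusted p = 0.0249), but both DMSO 24 h libraries held no count, so its size depends on the prior count and is no measure of the fold.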

How the results depend on the processing

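With 2 libraries a group, counts of passing entries moved with the libraries in the fit. Rises (8) were 5 with RLE factors and 5 with total counts, 14 without a filter, 3 with at least 50 counts in 2 libraries, 23 with only the 4 libraries compared, 2 with only the 8 DMSO libraries, 4 with only named entries, 3 thinned and 18 without both DMSO 12 h libraries, and 0 to 23 when a single library was left out. Falls (21) were 34 without a filter, 49 with the 4 libraries and 10 with only named entries, and 9 to 31 with a library left out. DMSO 24 h against 3 h (10 entries) gave 18 without a filter, 5 with the strict filter, 18 with DESeq2, 41 with the 4 libraries, 0 with only the 8 DMSO libraries, 2 with named entries, 1 thinned and 21 without both 12 h libraries, and 0 to 23 with a library left out. DMSO 24 h against 12 h (80) gave 25 with the 4 libraries and 30 to 96 with a library left out. PA 24 h against 3 h (32) gave 20 with the 4 libraries, 19 with named entries and 52 without both DMSO 12 h libraries, and 1 to 49 with a library left out.

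Of the 29 passing entries, 0 changed sign, 16 passed in every other setting that kept them and 6 in every fit with a library left out. Signs changed for entries that did not pass. The log2 fold change of miR-27a-3p was -0.016 with RLE factors or DESeq2, -0.0077 with total counts, -0.079 with the strict filter, -0.052 with the 4 libraries and -0.020 thinned. With the strict filter and the 4 libraries miR-22-3p was -0.048 and -0.019, and miR-27b-3p was -0.034 and -0.0067. miR-24-3p was 0.017 with 1 of each identical set. With a library left out, miR-27a-3p ran from -0.023 to 0.091, miR-27b-3p from -0.033 to 0.14, miR-22-3p from -0.074 to 0.16, miR-21-3p from -0.48 to 0.042 and miR-24-3p from -0.11 to 0.031. The cause of these moves was not tested. Whether the letters A and B pair the samples is not stated in the labels. Over 21 pairs of groups the deviations of same-lettered libraries correlated from -0.17 to 0.11. With the replicate block there were 6 rises and 21 falls, 19 of the latter shared, and 11, 76 and 34 entries for the other comparisons. Depth limits entries under about 1 CPM, since 1 count in a DMSO 0 h library is 0.62 or 0.82 CPM.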
